A study of Drosophila melanogaster with 5 samples.

Results

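Ecdysone synthesis and response genes were examined in whole adult Drosophila melanogaster females that lacked their insulin-producing cells (IPCs), the neurosecretory cells of the brain from which insulin-like peptides are secreted. The genes were chosen by symbol and not by a rule on their values, though earlier results of these data were known. They were 4 enzymes of hormone synthesis (phm, dib, sad and shd), both partners of the receptor (EcR and usp) and 4 transcription factors that the hormone is known to induce or to depend on (br, ftz-f1, Eip74EF and Eip75B). Of these 10 genes, 8 had a value, among 10124 genes with a value in all. The array annotation used here assigned no probe to Eip74EF, an ETS-domain factor, or to Eip75B, a nuclear receptor, and both were not analysed here. The synthesis gene phm is listed there under its newer symbol phtm, and is not the gene Phm, which encodes a neuropeptide-processing enzyme.

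IPC-deficient females carried InsP3-Gal4 with UAS-RPR/HID, which expresses the cell death genes reaper and hid under a driver active in the IPCs, and control females carried InsP3-Gal4 with UAS-LacZ. All were 14 days old and had been fed yeast paste for 48 h. RNA of both lines was hybridised together on 5 two-colour arrays from 2 biological repeats, with the IPC-deficient RNA in Cy5 on 2 arrays and in Cy3 on 3. Both lines carry the Gal4 driver. The sources used here do not say which repeat went on which array.

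Ecdysone is the steroid hormone of insects. It is built from dietary sterols by a chain of enzymes known as the Halloween genes, most of them cytochromes P450, and peripheral tissues convert it to its more active hydroxylated form. That form binds a nuclear receptor made of EcR and usp, which switches on early transcription factors and through them many later genes. In adult females the ovary, mainly its follicle cells, is a known source of the hormone, and the hormone is known there for its part in egg chamber development, in yolk uptake and in the upkeep of germ line stem cells.

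Each probe has 1 signed fold change in the authors' table, repeated on every array where a spot was usable. The spread between arrays or flies is therefore unknown, and nothing was tested. Values are given below as log2 values, the log2 of the fold with its sign. The numerator is not stated. A positive value is read as higher in IPC-deficient females, a direction that is likely but not settled: tobi, the alpha-glucosidase gene named target of brain insulin and known to be low in flies without these cells, stood at -4.10 (17.1-fold). Ilp2, a peptide gene of the ablated cells, stood at 0.01 from only 4 spots, so the loss of the cells could not be checked in these values. If the ratio runs the other way, all directions given here are the opposite. Each probe was spotted in 2 copies, so it could be read from at most 10 spots on the 5 arrays, and from 20711 to 28090 of 32448 features had a value per array. As an error, probes of 1 gene that differ in value were compared, and their pooled SD on the log2 scale was 0.18 for the 1437 probes read on all 5 arrays and 0.56 for all 2649 probes. This SD says nothing about the spread between flies. In whole-animal RNA, fewer cells of a type and less RNA per cell cannot be told apart.

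Most ecdysone genes lay close to 0. The values furthest from it were those of sad at 0.87 and usp at -0.26. Of the 8 measured genes, 4 lay above 0 and 4 below, with a median of -0.03, against a median of -0.01 over all genes. The values of 6 genes (phm, dib, shd, EcR, br and ftz-f1) were within 0.1 of 0, as were those of 44.9% of all genes. At a threshold of 1.5-fold in either direction, 1 of 8 genes was beyond it, which is 12.5% of so short a list, against 5.35% of all genes, and a count of 1 is too small to read as a result about the list. That gene, sad, lay on the positive side, where 2.24% of all genes did, and 0 of 8 genes lay on the negative side, where 3.11% did. Among the 5 genes whose every measured probe was read on all 5 arrays (phm, EcR, usp, br and ftz-f1), 0 were beyond 1.5-fold, against 2.68% of the 6564 such genes.

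**Figure D1:**
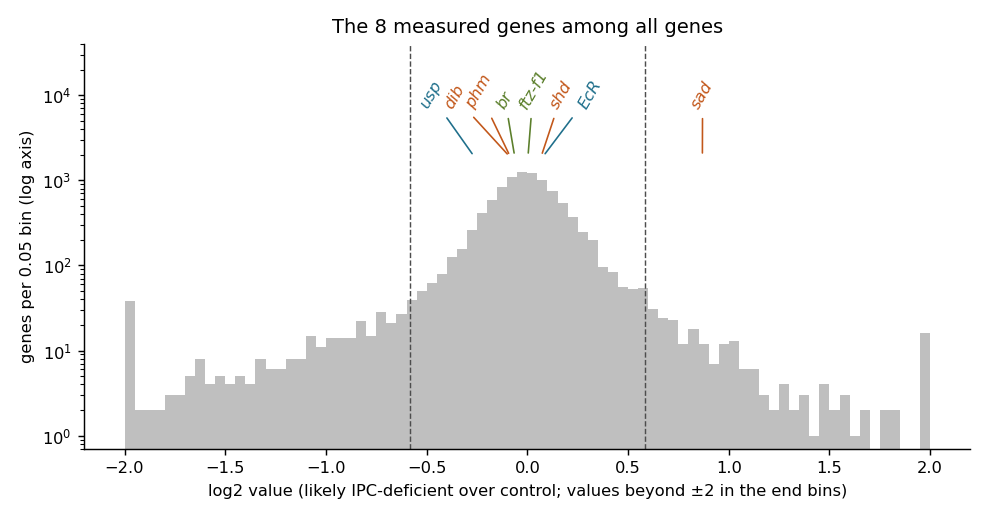
The histogram gives the number of genes (log axis) per 0.05 step of the log2 value, with values beyond 2 in either direction gathered in the end bins, and the coloured lines mark the 8 measured ecdysone genes. Dashed lines stand at 1.5-fold; usp at -0.26 lies towards the left flank, sad at 0.87 lies beyond the right line, and the other 6 lie within 0.1 of 0.

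The synthesis genes are given in the order in which their enzymes act. The P450 enzyme phm (phantom) stood at -0.09, a 1.06-fold value, from 8 spots on all 5 arrays. The next enzyme, dib (disembodied), a mitochondrial P450, also stood at -0.09 (1.06-fold), from 5 spots on 4 arrays. Neither value exceeded the SD between probes. The last mitochondrial step to ecdysone is carried out by sad (shadow), which stood at 0.87, a 1.83-fold value read as higher in IPC-deficient females. The sad probe rested on 6 spots, 2 each from arrays 1 and 3, 1 each from arrays 2 and 4, and 0 from array 5. The final enzyme, shd (shade), which acts in peripheral tissues to make the active form of the hormone, stood at 0.07 (1.05-fold) from 5 spots on 4 arrays. The median of the 4 enzymes was -0.01, and those acting before and after sad lay within 0.1 of 0.

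Each of these enzymes was measured by 1 probe, and no second sad probe was there to compare. Of all 10124 genes, 97.2% lay nearer to 0 than sad. It was 1.55 times the SD of 0.56 over all probes, the class that includes probes missing on an array. Of the 717 genes whose best probe also had 6 spots, 2.09% passed 1.5-fold on the positive side, and 17 genes, sad among them, lay at least as far from 0 on either side. Probes with 5 to 7 spots differed from other well-read probes of their gene by a median of 0.17, and 8.68% of 334 such probes differed by 1.5-fold or more. The 7 probes with a value that were printed within 2 spots of sad in its row and column ranged from -0.11 to 0.33, and 0 of them were beyond 1.5-fold.

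**Figure D2:**
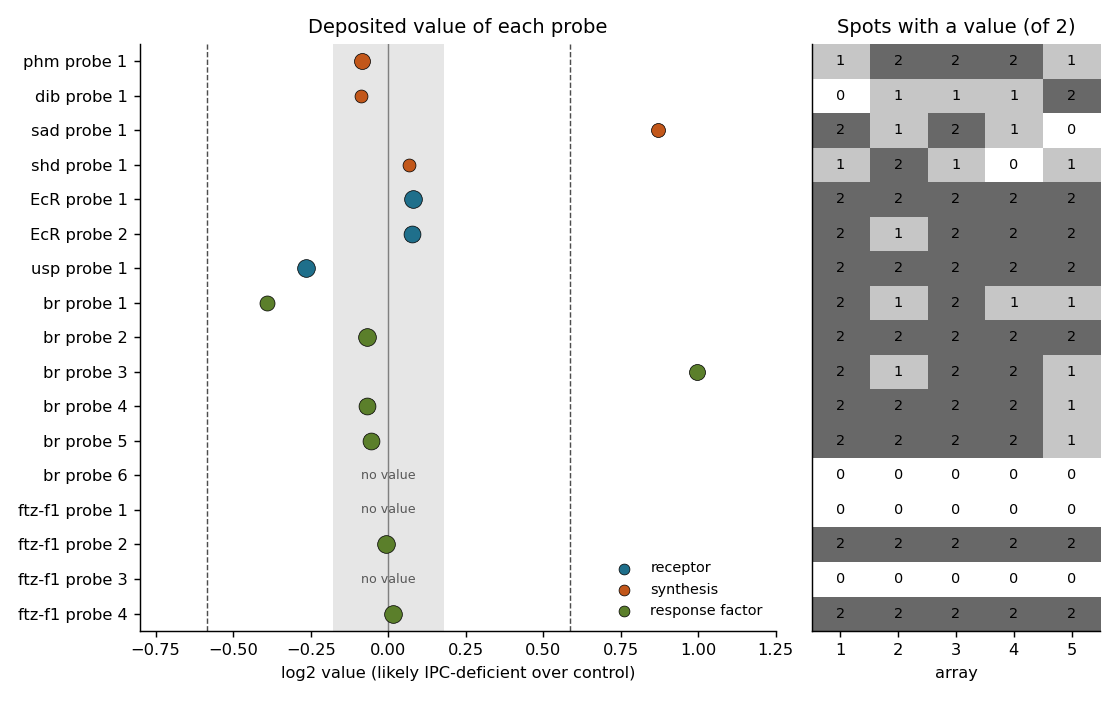
Left, the log2 value of each probe of the 8 measured genes, coloured by role, with point size growing with the number of spots. The grey band is the SD of 0.18 between probes read on all 5 arrays, either side of 0, and dashed lines stand at 1.5-fold. It is too narrow for sad, dib and shd, each missing on an array, where the SD over all probes was 0.56. Right, the number of spots with a value on each array, at most 2. The sad probe and br probe 3 lie beyond the right line, sad has no spot on array 5, and 3 probes of br and ftz-f1 have no value on any array.

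The 4 synthesis enzymes belong to the P450 family. Its genes were picked by name, as Cyp with a number or as a synthesis P450. The name also takes in Cyp1 (-0.08) and Cyp40 (-0.02), which are cyclophilin genes, and the pseudogenes Cyp6a15Psi and Cyp6a16Psi. None of those reached 1.5-fold. The median was 0.03 over the 86 genes so named. Of the 86, 5 lay past 1.5-fold on the positive side (5.81%, against 2.24% of all genes) and 3 on the negative side (3.49%, against 3.11% of all genes). The value of sad was 0.87, beside 0.82 for Cyp9b1 and 0.82 for Cyp4g1, and these 3 differed by less than the SD between probes. The P450 gene furthest from 0 was Cyp301a1, on the negative side at -1.001, from probes read in 3 spots.

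The receptor genes stood on opposite sides of 0, and the difference between them was not tested. EcR, the hormone-binding partner, had probes at 0.079 from 10 spots and at 0.076 from 9 spots, and its value was 0.08 (1.06-fold). The gap between its probes was 0.002, far below the SD between probes, so both probes gave the same small value. Its partner usp (ultraspiracle), the fly counterpart of the vertebrate retinoid X receptor, stood at -0.26, a 1.20-fold value read as lower in IPC-deficient females, from all 10 spots. This was 1.47 times the SD between probes, and 81.2% of all genes lay nearer to 0. EcR stood 0.34 above usp on the log2 scale. Both were among the best measured of the genes, and neither reached 1.5-fold.

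The response factors lay at 0 in the median but not at every probe. The nuclear receptor ftz-f1, a competence factor that readies tissues for later hormone pulses, had probes at -0.01 and 0.01 from 10 spots each, and a value of 0.003. Of its 4 probes, 2 had no value on any array. The zinc finger factor br (broad), an early ecdysone-response gene with several isoforms, had 5 probes with a value and 1 without. Its probes stood at -0.39 from 7 spots, -0.07 from 10 spots, 0.997 from 8 spots, -0.07 from 9 spots and -0.06 from 9 spots. The 2 probes at -0.07 held the same number to 5 decimals and were counted once, and the median of the 4 different values was -0.06. A single br probe was thus beyond 1.5-fold, on the positive side, while 3 of the 5 lay within 0.1 of 0. Among probes with 8 spots, 1.5% were beyond 1.5-fold on the positive side.

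The br probes spanned 1.39 log2 units. Of 538 genes with different probes all read on 5 arrays, 4 spanned more than 1 unit: br, MED26 at 1.43, CG5080 at 1.61 and TwdlM at 1.80. The median span over those 538 genes was 0.14. The sources used here do not say which br transcript each probe matches, and whether the probe at 0.997 reads another transcript or another gene was not tested. Of the 6 probes with a value within 2 spots of it on the array, 1 was beyond 1.5-fold, CG8736 at 1.83 from 2 spots, and the median of the 6 was -0.03. A further probe, annotated CG11509, a name since merged into br in the gene table, stood at -0.03 from 7 spots and was not counted for br.

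**Figure D3:**
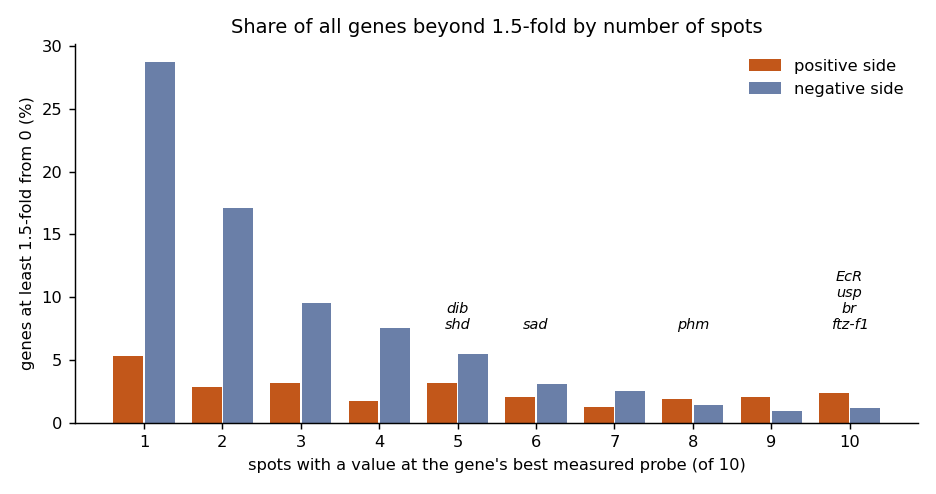
For all genes, the bars give the percentage beyond 1.5-fold on the positive side (left bar) and the negative side (right bar) against the number of spots with a value at the gene's best probe. Gene names mark where the 8 ecdysone genes fall; the share on the negative side is 28.7% at 1 spot and 1.20% at 10 spots, the share on the positive side 5.32% and 2.35%, and sad at 6 spots has a positive share of 2.09%.

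Other genes of the pathway were taken from lists of its known parts, which were set with earlier results of these data known. Of 84 such genes, 60 had a value, with a median of -0.03, 25 above 0 and 35 below. On the positive side 0 were beyond 1.5-fold, against 2.24% of all genes. On the negative side 4 were, Smr, ImpL1, Eig71Ed and Sgs3, which is 6.67% against 3.11% of all genes. In either direction the share of all genes was 5.35%. Each of the 4 had a probe missing on at least 1 array, and of the 31 genes read on all 5 arrays by every probe, 0 were beyond 1.5-fold, against 2.68% of all such genes.

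Genes of synthesis and its regulation lay near 0, with a median of 0.03 over 12 measured genes and none beyond 1.5-fold. The sterol carriers Npc2a and Npc1a, which move the sterols that synthesis starts from, stood at 0.20 and 0.13. The gene ecd (ecdysoneless), named for the loss of hormone in its mutants, stood at 0.13, and torso, the receptor of the brain hormone that drives synthesis in larvae, at -0.10. The P450 gene spo, an early step of the pathway, stood at -0.01 from 8 spots.

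Genes that clear or move the hormone stood furthest from 0 as a list, at a median of 0.31 over 4 genes, but 0 of the 4 reached 1.5-fold. Cyp18a1, the P450 that inactivates ecdysteroids, stood at 0.52 (1.43-fold) from all 10 spots. Atet, an ABC transporter that loads ecdysone into vesicles for release, stood at 0.37 (1.29-fold) from 10 spots, and EcI, the importer of ecdysone into cells, at 0.24 from 8 spots. Eo, an ecdysone oxidase, stood at -0.04 from 6 spots. The values of Cyp18a1 and Atet, both read on all 5 arrays, exceeded the SD of 0.18 between probes.

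Cofactors of the receptor had a median of -0.08 over 10 measured genes, 3 above 0 and 7 below. Smr, a corepressor of EcR, stood at -0.72 (1.65-fold), but its probes disagreed, at -0.23 from 10 spots and -1.21 from 2 spots. The EcR-binding protein gene rig (rigor mortis) stood at -0.20 at both of its probes, each from 10 spots. The immunophilin gene FKBP39 stood at -0.25, trr, a histone methyltransferase recruited by the receptor, at 0.07, and E(bx), a subunit of a nucleosome remodelling factor, at -0.04.

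Other receptors and factors of the response had a median of -0.07 over 7 measured genes with none beyond 1.5-fold. The factor tna stood at 0.25, the nuclear receptor Hr78 at -0.12, the repressor Blimp-1 at -0.07 and Eip93F, which directs late metamorphic programmes, at 0.01. The nuclear receptor family as a whole, 16 measured genes that include EcR, usp and ftz-f1, had 6 above 0 and 10 below with a median of -0.11. Its genes furthest from 0 among those read on all arrays were usp at -0.26, Hnf4, a regulator of lipid metabolism, at -0.17, Hr96, a receptor linked to sterol handling, at -0.13 and Hr78.

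Genes listed as induced by ecdysone, not all of them named for it, are mostly known from larvae and pupae. Their median was -0.08 over 27 measured genes, with 8 above 0 and 19 below, and 3 were beyond 1.5-fold. The larval glue gene Sgs3 stood at -1.54 (2.90-fold) from 4 spots, ImpL1, a gene of imaginal discs, at -0.69 (1.61-fold) from 5 spots and the late puparial gene Eig71Ed at -0.62 (1.54-fold) from 3 spots. At these spot numbers the negative side is the fuller one over all genes: 9.51% of genes with 3 spots at their best probe, 7.54% with 4 and 5.45% with 5 were beyond 1.5-fold there. Of the 27 genes, 11 were read on all arrays by every probe. Their median was -0.03, with Eip63E, a cyclin-dependent kinase gene, at -0.17, Eip71CD, a methionine sulfoxide reductase gene, at 0.17, ImpE2 at 0.15 and Eip55E, a cystathionine lyase gene, at 0.14. A probe of Eip71CD stood at -0.70 from 9 spots, apart from its other probes at 0.17 from 10 spots each.

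**Figure D4:**
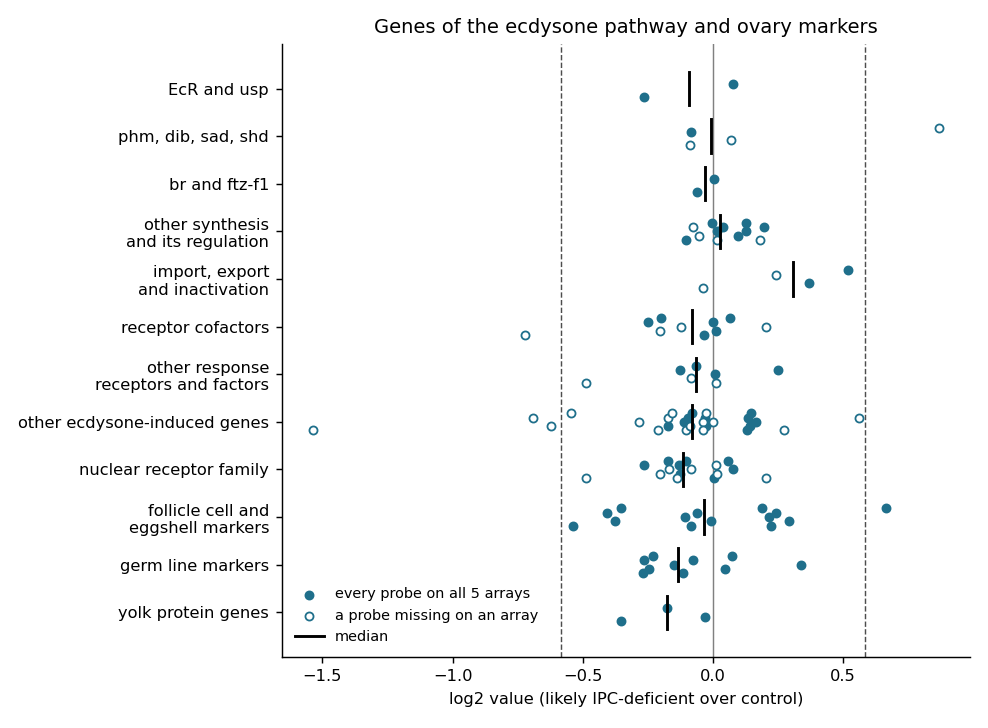
Each point is the log2 value of a gene, by list, filled where every probe of the gene was read on all 5 arrays and open where not; black bars are list medians and dashed lines stand at 1.5-fold. All points of the pathway lists beyond the dashed lines are open (sad on the right and Smr, ImpL1, Eig71Ed and Sgs3 on the left), and the list of import, export and inactivation has the highest median, 0.31.

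Markers of the ovary, the known source of ecdysone in adult females, stood on both sides. The 14 measured follicle cell and eggshell genes, all read on all 5 arrays, had a median of -0.03, with 6 above 0 and 8 below. They ranged from -0.54 for Vm32E to 0.67 for Cp18, the 1 gene of the 14 beyond 1.5-fold. Of all genes read on all 5 arrays by every probe, 2.68% were beyond it in either direction. All 6 above 0 were chorion protein genes (Cp15, Cp16, Cp18, Cp19, Cp36 and Cp38), and Cp7Fc stood at -0.01. The measured Vm genes, psd, dec at -0.41 and Femcoat at -0.37 all lay below 0. The 10 germ line markers had a median of -0.13 with 3 above 0 and 7 below, among them piwi at -0.27, BicD at -0.26, bam at -0.24 and nos at 0.34. Of the genes for yolk proteins, Yp1 stood at -0.35, Yp2 at -0.18 and Yp3 at -0.03. The table holds no expression level, so the labelled tissue could not be checked against the level of its markers, and the part of ovary content in the values of sad, usp or the clearance genes was not tested.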

How the data were processed

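The deposited table holds a score per feature and array, a signed fold change: of 29507 features with a value, 0 had a size under 1. Per the series' design text, each array was scanned 3 times and the authors normalised both spot copies and all hybridisations together. Of 27376 features with at least 2 arrays filled, 0 differed between arrays by more than 1e-06. The sources used here do not say how background was corrected, how values were normalised or why cells are empty. The model for separate array values was therefore not run, and genes were described by a rule of size, 1.5-fold. The number of arrays limits the precision.

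Here the 32448 features were joined into 16224 probes (spot copies 2 blocks apart), and 14972 probes had a value. Symbols of the 2007 annotation were updated through a RefSeq table of Release 6, by Entrez identifier for 12068 probes and by accession for 113, and 355 kept their name. A gene's value is the median over probes, equal values (to 5 decimals) counted once. Related genes can cross-hybridise on spotted probes. The members, lists and threshold were chosen with earlier results of these data known. The rule named every member with a value and, from each other list, the genes beyond 1.5-fold and the 4 furthest from 0 among those read on all 5 arrays. MED26, CG5080, TwdlM, CG8736, CG11509, Cyp9b1, Cyp4g1, Cyp301a1, spo, EcI and Eo are named outside it, after their values were seen. The joining of probes was tested on simulated data with 2 probes per gene. An SD between probes was also recovered there, by a formula for equal probe numbers. The code for the pooled SD reported here was not itself tested. Alternatives were column centring, filters on arrays or spots, other ways of joining probes and a 2-fold threshold. Python 3.11.15, numpy 2.4.6, pandas 2.3.3 and matplotlib 3.10.9 were used.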

Additional observations from a re-analysis of the deposited data

How the results depend on the processing

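The count of members beyond 1.5-fold on the positive side was 1 in the values reported and 0 both at 2-fold and with only probes read on all 5 arrays, which leaves sad out. It was 1 under the other 7 alternatives, and 0 on the negative side under all 9. Of those 7, only column centring could move sad, which rests on 1 probe with 6 spots. The median of the members ranged from -0.06 to 0.04. The values of usp, phm, sad, dib and shd come from 1 probe each, so joining probes otherwise or filtering them could not move these values. Of 61 member values under an alternative, many of them from these genes, 59 moved by less than the SD between probes of 0.18. The exceptions were of br, which stood at 0.12 as a mean over probes and at 0.12 with probes weighted by spots, on the other side of 0 from its median of -0.06, since the probe at 0.997 then enters in full. The 4 other pathway genes beyond 1.5-fold on the negative side became 3 with the probe with the most spots and 3 with probes weighted by spots. They became 1 at 2-fold, 1 with at least 5 spots per probe, and 0 with only probes read on all 5 arrays. Counting every probe, and adding the CG11509 probe to br, were chosen after seeing the data. Arrays could not be left out in turn, because the table holds 1 combined value per probe. No paired analysis was possible because the result comes from no test.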

Other observations

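Some genes of the hormone's action could not be described. Kr-h1, vri, woc, Sgs4 and Eig71Ee had a probe on the arrays but no value on any of the 5. A probe annotated CG3600, a name since merged into the ecdysone-response receptor gene Hr4 in the gene table, stood at 0.18 from 9 spots and entered no list. Among genes that answer ecdysone in the larval fat body, Fbp1 (3 spots) stood at 0.56, Fbp2 (3 spots) at -0.55 and Lsp2 (10 spots) at -0.08. The nuclear receptor gene Hr39, known for its part in the female reproductive glands, stood at -0.49 (1.40-fold) from 6 spots, and svp at 0.21 from probes at 0.06 from 10 spots and 0.35 from 4 spots. ImpL2, a secreted protein that binds insulin-like peptides and was first named for its induction by ecdysone, stood at -0.03 from 10 spots. These genes were named after their values were seen.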
